A study of Mus musculus with 4 samples.

Results

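Besides probes for genes, the expression array used in this study carries probes for long intergenic noncoding RNAs (lincRNAs), which it names by a chromosome interval instead of a gene. The members described here are the noncontrol probes of that set, recognised by the start of their probe name, that the scanner software called well above background on 1 or more of the 4 arrays. They number 12237 of 16251 lincRNA probes (75.3%), of 55681 distinct probes in all. The lincRNA probes lie in 3555 chromosome intervals of the mm9 build on 20 chromosomes (0 probes on chromosome Y), and 1067 of these intervals are probed on both strands. Overlapping intervals of 1 strand merge into 3370 loci, so probes and intervals are not independent of each other.

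LincRNAs are transcripts of genes that lie between protein-coding genes and carry no long open reading frame. Most are spliced and polyadenylated like messenger RNAs, but they are on the whole less abundant and more restricted to single cell types, and many stay in the nucleus. Some have well-studied roles: Xist coats and silences 1 X chromosome in female cells, Neat1 is the scaffold of nuclear paraspeckles, and Malat1 (also called Neat2) is an abundant RNA of nuclear speckles.

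RNA came from freshly sorted cells of adult mouse bone marrow, and each of the 4 groups has 1 array: LSK cells of WT littermates (WT LSK), LSK cells of SFRP5-transgenic mice (SFRP5 LSK), CLP-enriched cells of WT littermates (WT CLP) and CLP-enriched cells of SFRP5-transgenic mice (SFRP5 CLP). LSK cells are lineage-negative and high for c-kit and positive for Sca-1, a fraction that holds the stem cells and earliest progenitors of blood, and CLP cells are lineage-negative, low for c-kit and Sca-1 and positive for the IL-7 receptor, which marks early lymphoid progenitors. SFRP5 is a secreted protein that binds Wnt ligands, and the question of the design is which transcripts differ with its expression. The number and sex of the mice, whether they were pooled, and the promoter that drives the transgene were given in none of the sources used here. With 1 array per group no difference between 2 arrays has a replicate check, and how precise the values below are is limited by there being 4 arrays in all.

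Of the 12 RNAs that the array names in its lincRNA set, 11 matched a RefSeq symbol or synonym and 6 of these had a promoter in the RefSeq table. The promoters of the 4 on which the results below turn are shown to place them in the genome (GRCm38.p6, from 250 bases before to 50 bases after the transcription start, on the gene's own strand). Capitals mark matches, on either strand, to 6 short motifs that are spelled out after the sequences. No match overlaps another.
Xist, chrX:103483184-103483483, minus strand: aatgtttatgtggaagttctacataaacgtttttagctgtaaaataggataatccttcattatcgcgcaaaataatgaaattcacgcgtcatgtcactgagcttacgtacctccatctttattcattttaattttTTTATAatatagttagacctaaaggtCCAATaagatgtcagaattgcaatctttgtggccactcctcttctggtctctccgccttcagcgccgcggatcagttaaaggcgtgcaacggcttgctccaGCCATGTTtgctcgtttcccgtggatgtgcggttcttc
Malat1, chr19:5802623-5802922, minus strand: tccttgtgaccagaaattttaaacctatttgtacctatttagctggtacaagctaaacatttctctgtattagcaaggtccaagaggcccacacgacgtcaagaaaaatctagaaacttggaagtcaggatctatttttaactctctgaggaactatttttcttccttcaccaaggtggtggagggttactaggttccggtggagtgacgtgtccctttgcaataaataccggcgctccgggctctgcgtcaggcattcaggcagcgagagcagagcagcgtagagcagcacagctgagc
Tug1, chr11:3648765-3649064, minus strand: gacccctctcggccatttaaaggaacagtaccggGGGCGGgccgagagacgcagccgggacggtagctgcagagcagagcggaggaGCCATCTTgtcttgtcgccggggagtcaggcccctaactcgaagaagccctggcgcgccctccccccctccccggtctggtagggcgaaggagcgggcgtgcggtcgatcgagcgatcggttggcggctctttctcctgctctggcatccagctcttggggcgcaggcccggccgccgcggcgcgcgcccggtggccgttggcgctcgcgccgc
Kcnq1ot1, chr7:143296498-143296797, minus strand: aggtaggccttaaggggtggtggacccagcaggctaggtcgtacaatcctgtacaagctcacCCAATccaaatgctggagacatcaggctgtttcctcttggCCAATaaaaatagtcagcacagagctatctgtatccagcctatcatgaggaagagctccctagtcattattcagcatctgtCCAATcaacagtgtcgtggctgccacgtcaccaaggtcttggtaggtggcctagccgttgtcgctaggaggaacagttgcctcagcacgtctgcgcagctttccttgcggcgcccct

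The Xist window held 3 matches: TATAAA on the other strand, CCAAT, and GCCATNTT starting 12 bases past the start site. The Tug1 window held 1 GGGCGG and 1 GCCATNTT, the Kcnq1ot1 window held CCAAT 3 times, and the Malat1 window held none of the 6. Among 32851 RefSeq promoters of the same length, 13.6% held the TATA box TATAAA, 35.7% the GC box, searched as GGGCGG, and 37.4% the CCAAT box. The cAMP response element, searched as TGACGTCA, was in 1.79%, the ETS site, searched as CCGGAAGT, in 3.89%, and the YY1 site, searched as GCCATNTT, in 6.05%. The Tug1 window also held 37 CG dinucleotides against a median of 7 over all promoters. These matches describe the letters of the windows and are no evidence of binding.

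All levels below are log2 processed signals minus the 75th percentile of the array, so that 0 is the signal at that percentile, and a difference of 1 is 2-fold. Before any comparison, the WT LSK array stood apart from the other 3 for the lincRNA probes. On it 68.9% of the lincRNA probes were well above background, against 61.3% on SFRP5 LSK, 61.8% on WT CLP and 62.5% on SFRP5 CLP. The median lincRNA level was -2.95 on WT LSK and between -3.60 and -3.55 on the other 3 arrays. Gene probes showed a smaller gap, with 70.6% above background on WT LSK and 66.9% to 67.6% elsewhere. Differences that use WT LSK are given below next to the same difference on the pair of arrays without it. In bulk samples such as these, fewer cells of a type and less RNA per cell cannot be told apart.

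Of the markers of the sorts, the LSK genes Kit, Ly6a, Flt3, Hlf and Procr were at least 2-fold lower in CLP in both genotypes, Procr by a bound in WT, where it was not above background in CLP. Mecom, a transcription factor of stem cells, measured -2.54 on WT LSK, -4.36 on SFRP5 LSK, -3.93 on WT CLP and -3.93 on SFRP5 CLP, so that it was lower in CLP in WT and higher in SFRP5. Of 6 CLP genes 5 (among them Il7r and Rag1) were at least 2-fold higher in CLP in both genotypes. Markers of other lineages were also higher on both CLP arrays: 4 of 4 erythroid, 3 of 4 mast cell and basophil, 3 of 4 neutrophil and 3 of 3 B cell genes. The summed signal of the erythroid list, in multiples of the array's 75th percentile, was 10.4 and 10.6 on the LSK arrays and 174 and 102.5 on the CLP arrays, and that of the B cell list was 2.34 and 2.16 against 26.7 and 33.0. All 15 of these genes were above background on at least 1 array. By the same measure 1 of 2 stroma genes and 0 of 2 T cell genes were higher. Their part in the sort differences of lincRNA probes was not tested.

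lincRNA probes were detected nearly as often as gene probes but were dimmer. On at least 1 array 75.3% of lincRNA probes and 76.3% of gene probes were well above background, whereas on all 4 arrays the shares were 52.7% (8561 probes) and 60.5%. Between 13.7% and 16.7% of lincRNA probes reached the 75th percentile of their array, against 28.4% to 29.1% of gene probes. On WT LSK the lowest lincRNA level called above background was -4.79 and the highest not so called was -4.32, and these edges were similar on the other arrays. A total of 4014 lincRNA probes (24.7%) were above background on no array.

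Detection on a single array was most common for WT LSK. Of the 16251 lincRNA probes, 718 (4.42%) were above background on WT LSK alone and 219 (1.35%) on SFRP5 LSK alone. On WT CLP alone there were 234 (1.44%) and on SFRP5 CLP alone 259 (1.59%). Gene probes were likewise most often seen on WT LSK alone, with 1025 of 39430 probes there and 429, 430 and 486 on the other 3 arrays in that order. Exactly 1 array detected 8.80% of lincRNA probes and 6.01% of gene probes, and exactly 2 arrays 6.49% and 4.92%. Both LSK arrays and neither CLP array detected 330 lincRNA probes (2.03%), and both CLP arrays and neither LSK array 137 (0.843%). Both WT arrays and neither SFRP5 array detected 247 (1.52%), and both SFRP5 arrays and neither WT array 57 (0.351%). The gene probes of these pairs of arrays were not counted, so these shares cannot be called particular to lincRNA probes. The longer the interval, the more of its probes were detected: 66.1% of probes in intervals under 1 kb, 76.4% in those of 1 to 10 kb and 77.2% in longer ones. Probes of intervals probed on both strands were detected more often (78.3%) than those of intervals probed on 1 strand (70.8%), and forward and reverse probes equally often (75.3% each).

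The brightest lincRNA probes all came from few places. Of the 10 with the highest mean level, 7 lie in 4 overlapping stranded intervals of band 17qB1, within chr17:39960567-39992817. The brightest of all, on the reverse strand of that interval, measured 9.66 on WT LSK, 10.05 on SFRP5 LSK, 10.11 on WT CLP and 9.80 on SFRP5 CLP. The array's gene probe for Rn18s, the RNA of the small ribosomal subunit, carries the same band label and measured 4.47, 4.77, 5.17 and 4.67 on the same arrays. The other 3 of the 10 are in chr2:151992806-152025456 (8.62, 8.78, 9.19 and 8.83) and chrX:33750475-33770425, whose 2 probes lay between 8.26 and 9.21. None of the 10 was called different between sorts by the fit described below, with adjusted p between 0.53 and 0.95.

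Among the 12 named RNAs, XIST gave the clearest pattern by genotype. Its 5 probes, on the reverse strand of chrX:100655711-100678572 in band XqD, were above background on both SFRP5 arrays and on neither WT array. The brightest measured 3.38 on SFRP5 LSK and 2.43 on SFRP5 CLP, with -7.00 on WT LSK and -5.74 on WT CLP, both not well above background. A bound sets the bright array against the dim one at the higher of the probe's own signal there and a floor, the lowest signal that any probe of that array had when called well above background. That floor was -5.07 on WT LSK, -5.08 on SFRP5 LSK, -5.74 on WT CLP and -5.16 on SFRP5 CLP. Over lincRNA probes alone it was between -4.89 and -4.72, and -4.72 on WT CLP, which makes bounds against that array up to 2.02 times smaller. By that bound the 5 probes exceeded WT by at least 47.7-fold to 349.5-fold in the LSK pair, and by at least 20.7-fold to 289-fold in the CLP pair. With the floor over lincRNA probes alone, a setting chosen after the data were seen, the bounds were 41.8-fold to 287-fold and 17.9-fold to 143-fold. The 2 Xist gene probes behaved alike, at 2.16 and 4.99 on SFRP5 LSK and 1.73 and 4.50 on SFRP5 CLP, and below background on WT. Within the SFRP5 arrays all 5 XIST probes were lower in CLP than in LSK, by a difference of -1.27 to -0.89.

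The gene probes of 4 Y-linked genes, Ddx3y, Uty, Kdm5d and Eif2s3y, were lower on the SFRP5 array in both sorts, with differences between -2.26 and -0.82. Ddx3y, a Y-linked RNA helicase, measured -0.50 on WT LSK, -1.85 on SFRP5 LSK, -0.02 on WT CLP and -1.55 on SFRP5 CLP. XIST and these genes thus separate the genotypes in both sorts. Anything else that differs between the arrays in the same way, the sex of the mice included, cannot be told apart from the transgene in any genotype difference below.

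TSIX, the antisense partner of XIST, was above background with 0 of its 5 probes on any array. The Tsix gene probe was above background on 2 arrays, at -3.83 on WT LSK, -5.34 on SFRP5 LSK, -3.04 on WT CLP and -4.63 on SFRP5 CLP. Another 25 unnamed lincRNA probes in 7 stranded intervals lie within 200 kb of the XIST and TSIX intervals, and 16 of them were above background on all 4 arrays. None was above background on both SFRP5 arrays and neither WT array. The probe on the reverse strand of chrX:100676170-100710920, which overlaps the XIST interval, measured 4.67 on WT LSK, 5.20 on SFRP5 LSK, 5.95 on WT CLP and 5.07 on SFRP5 CLP and so did not separate the genotypes. On the forward strand of chrX:100745320-100819322, 4 of 7 such probes were higher on the SFRP5 array in both sorts and 1 was lower in both, with medians of 0.96 in LSK and 0.82 in CLP. On its reverse strand the 2 such probes had medians of -0.63 and 0.30.

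NEAT1, the paraspeckle scaffold, was highest on WT LSK with every probe. Its 5 probes in chr19:5842306-5845476 (reverse strand, band 19qA) spanned 0.38 to 3.11 on WT LSK, -1.23 to 1.46 on SFRP5 LSK, -1.02 to 1.84 on WT CLP and -0.90 to 2.14 on SFRP5 CLP. The SFRP5 array was lower than WT by -1.95 to -1.61 in LSK and higher by 0.12 to 0.48 in CLP. Likewise CLP was lower than LSK in WT (-1.66 to -1.27) and higher in SFRP5 (0.34 to 0.91). The gene probe for Neat1 measured 2.11, 0.26, 0.57 and 0.56 on WT LSK, SFRP5 LSK, WT CLP and SFRP5 CLP. All 5 lincRNA probes kept these directions under each of 6 ways of scaling the arrays.

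NEAT2, the array's name for Malat1, was bright on every array and lowest on WT CLP. Its 3 probes in chr19:5795689-5802671 (reverse strand) had medians of 3.48 on WT LSK, 3.15 on SFRP5 LSK, 2.26 on WT CLP and 2.98 on SFRP5 CLP. All 3 were at least 2-fold lower in CLP than in LSK in WT (-1.37 to -1.03), while in SFRP5 the difference was -0.16 to -0.07. Inside the same interval lie 2 unnamed lincRNA intervals of the same strand, chr19:5798135-5800557 and chr19:5801802-5802597, with 6 probes, the highest of them at 8.53 on WT LSK. Those 6 probes were also lower in CLP in both genotypes, by -1.11 to -0.46 in WT and by -0.52 to -0.23 in SFRP5. The Malat1 gene probe measured 3.23, 2.89, 1.96 and 2.83.

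TUG1, a broadly expressed nuclear RNA, was higher on the SFRP5 array in both sorts, though by less than 2-fold. The medians of its 5 probes in chr11:3539796-3547536 (reverse strand) were 2.08 on WT LSK, 2.40 on SFRP5 LSK, 2.08 on WT CLP and 2.43 on SFRP5 CLP. The difference was 0.32 to 0.54 in LSK and 0.32 to 0.41 in CLP, and all 5 probes kept that direction under each of the 6 scalings. The 3 probes of chr11:3539787-3548811, which covers the TUG1 interval, gave 0.43 to 0.48 in LSK and 0.32 to 0.40 in CLP. The 3 probes of chr11:3542140-3546888, which lies within it, were instead lower in SFRP5 LSK (-0.51 to -0.41) and higher in SFRP5 CLP (0.14 to 0.23). Probes of 1 locus and strand thus disagreed in LSK, and the 3 Tug1 gene probes ranged from -1.49 to 0.24 there. The sort difference of TUG1 was between -0.02 and 0.15 and changed sign with the scaling.

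KCNQ1ot1, named after an RNA that silences imprinted genes around Kcnq1, was highest on WT LSK, as NEAT1 was. The array gives its interval, chr7:150399015-150482452, on the forward strand, whereas RefSeq places Kcnq1ot1 on the minus strand. Its 5 probes had medians of 1.26 on WT LSK, 0.54 on SFRP5 LSK, 0.47 on WT CLP and 0.59 on SFRP5 CLP. In LSK the 4 probes above background on both arrays were lower in SFRP5 by -1.70 to -0.55, and the fifth was at least 5.22-fold lower. In CLP the genotype difference lay between -0.48 and 0.12, and the sign of its median depended on the scaling. The 2 Kcnq1ot1 gene probes were lower in SFRP5 LSK by -2.50 and -1.11.

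lincP21, listed in RefSeq as Trp53cor1 and known as a target of p53, was lower in CLP than in LSK in both genotypes. Its probes in chr17:29194418-29215906 (reverse strand) had medians of -2.06 on WT LSK, -1.33 on SFRP5 LSK, -4.98 on WT CLP and -3.44 on SFRP5 CLP. All 5 were above background on both LSK arrays, 2 on WT CLP and 4 on SFRP5 CLP. Where both arrays of a pair detected a probe, the difference was -1.73 and -1.15 in WT (2 probes) and -4.43 to -0.85 in SFRP5 (4 probes). The probe at -4.43 measured -4.88 on SFRP5 CLP, where the lowest lincRNA level called above background was -4.89. Of chr17:29183003-29217681, which covers the interval, 2 probes were above background on all 4 arrays. They gave -0.48 and -0.12 in WT and -0.21 and -0.61 in SFRP5. Such a probe of chr17:29192453-29216073, which also covers it, gave -1.40 and -0.07.

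The other named RNAs were dim or not detected. NRON, a regulator of the transcription factor NFAT, was above background with 4 of its 5 probes on all arrays, at medians of -2.28, -2.25, -3.03 and -3.10 on WT LSK, SFRP5 LSK, WT CLP and SFRP5 CLP. H19, an imprinted fetal RNA, had medians between -4.71 and -3.13, and its 5 probes were all above background on WT CLP. In CLP the 3 probes above background on both arrays were lower in SFRP5 by -0.76 to -0.54. The other 2 were at least 3.40-fold and 8.73-fold lower, or 2.83-fold and 7.26-fold with the floor over lincRNA probes alone. The 2 H19 gene probes went opposite ways there, at 0.94 and -4.69, the second not above background on SFRP5 CLP. HOTAIR, which lies in the Hoxc cluster, and PINC had 1 probe of 5 above background on any array, and BRN1-A had 2 of 4.

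Between the sorts, lincRNA probes were more often lower than higher in CLP in WT, and less so in SFRP5. Of 9536 lincRNA probes above background on both WT arrays, 796 were at least 2-fold higher in CLP (8.35%, against 15.4% of all probes) and 2229 at least 2-fold lower (23.4%, against 16.9% of all probes). Together these are 31.7% of the lincRNA probes, against 32.2% of all probes. Of 9082 probes on the SFRP5 arrays, 713 were higher (7.85%, against 10.1% of all probes) and 1070 lower (11.8%, against 11.1% of all probes), together 19.6% against 21.2%. Over these probes the WT median was -0.36 and the SFRP5 median -0.06, where gene probes gave 0.04 and 0.03. Gene probes of equal signal, weighted to the lincRNA probes' distribution over bins of mean level 1 log2 unit wide, gave -0.07 and -0.02. They were 2-fold different as often as lincRNA probes in WT (31.8% against 31.7%) and somewhat more often in SFRP5 (23.8% against 19.6%).

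Probes seen on only 1 array of a pair add bounds. In WT, 509 lincRNA probes were seen on the CLP array alone and 1655 on the LSK array alone. By a bound, 236 of the first were at least 2-fold higher in CLP and 1311 of the second at least 2-fold lower. Over all probes seen on 1 array of that pair, lincRNA and gene together, 15.8% were higher and 55.5% lower. In SFRP5 those counts of lincRNA probes were 1073 and 880, and the bounds gave 567 higher and 574 lower. Over all such probes there, 29.3% were higher and 29.4% lower. With the floor over lincRNA probes alone the counts were 185 and 792 in WT and 469 and 488 in SFRP5. On the pair without WT LSK the bounds were thus near even, while the measured differences there still held more lower than higher probes.

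The split between higher and lower depends on how the arrays are scaled. Of the 2-fold lincRNA probes in WT, 26.3% were higher in CLP in the main setting, 16.2% with the percentile taken over gene probes alone and 9.10% in the authors' deposited table, and at the other end 33.5% with quantile normalization, 34.1% with cyclic loess and 34.6% with normexp. In SFRP5 that share was 40.0%, and it ran from 28.0% in the authors' deposited table to 46.9% without the filter on dim probes. In WT, scaling moved the median of all probes by -0.41 to 0.12. The gap between the lincRNA and gene medians does not depend on a constant factor per array: it was -0.40 in WT and -0.09 in SFRP5, and over 9 settings it ranged from -0.52 to -0.18 in WT and from -0.11 to -0.02 in SFRP5.

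Between the genotypes, the same contrast appeared wherever WT LSK was one of the arrays. Of 9547 lincRNA probes in LSK, 517 were at least 2-fold higher in SFRP5 (5.42%, against 6.16% of all probes) and 1460 lower (15.3%, against 9.93% of all probes), together 20.7% against 16.1%. Of 9234 in CLP, 538 were higher (5.83%, against 4.65% of all probes) and 495 lower (5.36%, against 4.86% of all probes), together 11.2% against 9.51%. Of gene probes of equal signal, 17.5% were 2-fold different in LSK (7.27% higher, 10.2% lower) and 11.8% in CLP (5.56% higher, 6.22% lower). In CLP the lincRNA share was thus no higher than that of gene probes of equal signal. By bounds, 220 lincRNA probes were higher and 1013 lower in LSK (13.6% and 43.1% of all such probes), and 566 higher and 437 lower in CLP (31.9% and 24.8%). With the floor over lincRNA probes alone the counts were 192 and 837 in LSK, and in CLP the balance turned, with 306 higher and 345 lower. The median was -0.26 in LSK and -0.04 in CLP, beside 0.03 and -0.07 for gene probes and -0.08 and -0.06 for gene probes of equal signal. The comparison in LSK shares the WT LSK array with the sort comparison in WT, so the 2 are not independent.

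Scaling moved the split here too. Of the 2-fold lincRNA probes in LSK, 26.2% were higher in SFRP5 in the main setting, 38.4% after quantile normalization, 43.2% after cyclic loess and 18.7% in the authors' deposited table. In CLP that share was 52.1%, and it ran from 46.1% without the filter on dim probes to 62.4% in the authors' deposited table, so which direction was the more common depended on the setting. The gap between lincRNA and gene medians was -0.29 in LSK, with a range of -0.33 to -0.15 over the 9 settings, and 0.03 in CLP, with a range of -0.02 to 0.04.

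The shift was spread over the genome. In LSK the median genotype difference of lincRNA probes was below 0 on 20 of 20 chromosomes, between -0.38 and -0.08, where that of gene probes was below 0 on 3 of 20. For the sort difference in WT the lincRNA medians were below 0 on 20 of 20 chromosomes, between -0.58 and -0.20, and those of gene probes on 2 of 20. On the pairs without WT LSK the lincRNA medians lay nearer 0 but were mostly negative too. For the sort in SFRP5 they were below 0 on 19 of 20 chromosomes, between -0.15 and 0.02, and those of gene probes on 2. For the genotype in CLP they were below 0 on 16 of 20, between -0.11 and 0.02, and those of gene probes on 20. Across 225 cytogenetic bands with at least 10 probes of each kind, the lincRNA and gene medians of a band were only weakly correlated, with Pearson's r of 0.14 for the sort in WT, 0.17 for the sort in SFRP5, 0.05 for the genotype in LSK and 0.07 for the genotype in CLP. Bands of 1 array pair share that pair's scaling, and these r values are descriptions.

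The gap depended on signal. In WT the median sort difference of lincRNA probes was -0.35 at mean levels of -4 to -3, where gene probes gave -0.28. It was -0.48 at levels of -2 to -1, where gene probes gave -0.18. At 1 to 2 the values of lincRNA and gene probes were -0.25 and 0.32, and at 4 to 5 they were 0.63 and 0.77. The gap was thus wider at 1 to 2 than at -4 to -3 or at 4 to 5. In LSK the genotype difference was -0.35 and -0.12 for lincRNA and gene probes at levels of -2 to -1, and 0.20 and 0.25 at 4 to 5. It was -0.40 and -0.29 at -4 to -3, and -0.08 and 0.19 at 1 to 2. On the pairs without WT LSK, the 2 kinds of probe lay close to each other at -2 to -1: -0.09 and -0.06 for the sort in SFRP5, and -0.03 and -0.03 for the genotype in CLP. At higher levels a gap was also seen for the sort in SFRP5, with -0.05 and 0.12 at 1 to 2 and 0.06 and 0.21 at 4 to 5. For the genotype in CLP the values there were -0.01 and -0.03, and -0.16 and -0.16. Short intervals held more of the shift, with a median genotype difference in LSK of -0.41 under 1 kb, -0.28 at 1 to 10 kb and -0.23 at 10 kb or more. Their probes were also dimmer, with median levels of -4.45, -3.49 and -3.21 in that order. Length was not set apart from signal here.

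Most lincRNA probes had the same direction of the sort difference in both genotypes, and fewer had the same direction of the genotype difference in both sorts. The 2 sort comparisons share no array, nor do the 2 genotype comparisons. Over the 8561 lincRNA probes above background on all 4 arrays, 61.5% had the same direction of the sort difference in both genotypes, with r 0.34, beside 65.1% for gene probes of equal signal. Of the 2712 that were 2-fold in WT, 68.4% had the same direction in SFRP5, beside 76.8% for gene probes of equal signal. In both genotypes 196 were at least 2-fold higher (2.29%, against 5.16% of all probes) and 475 at least 2-fold lower (5.55%, against 5.14% of all probes). Another 175 of the 8561 were 2-fold in opposite directions, beside 241 of 23839 gene probes. For the genotype, 45.2% had the same direction in both sorts (gene probes of equal signal, 47.5%), with r -0.08. In both sorts 43 were at least 2-fold higher (0.502%, against 0.506% of all probes) and 111 lower (1.30%, against 0.821% of all probes), fewer than the 185 that were 2-fold in opposite directions. Of the 23839 gene probes, likewise, 276 were 2-fold the same way in both sorts and 327 in opposite directions.

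The design's only replication is a fit over all 4 arrays with genotype and sort as terms, which assumes that each difference does not depend on the other factor and leaves 1 residual degree of freedom. In this fit (limma, Benjamini-Hochberg adjusted p under 0.05 over 38506 probes above background on at least 2 arrays), 140 of 10802 lincRNA probes passed for the sort. Of these, 31 rose in CLP (0.823% of all probes rose) and 109 fell (0.831% of all probes fell), and 1.30% of lincRNA probes passed against 1.65% of all probes. Only 20 of the 140 were above background on all 4 arrays, 4 that rose and 16 that fell, and for 98 neither array of 1 sort was above background, so that the fitted size of their difference is not a measured one. The 140 lie in 105 stranded intervals and 92 loci, and 27 of the intervals hold at least 2 of them. The count rests on the setting: it was 0 with quantile normalization, with cyclic loess and without the filter on dim probes, where 1618, 1662 and 2043 had an unadjusted p under 0.05, and 318 to 358 with normexp, with the filter set to all 4 arrays or with an intensity trend.

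For the genotype, limma called 0 of the 10802 lincRNA probes and 0 of all probes (0% of 38506), with 785 lincRNA probes at an unadjusted p under 0.05. The smallest adjusted p was 0.0758, for an XIST probe that was above background on the SFRP5 arrays alone, so that its difference is known only by the bound above. The counts under the other settings were 0 to 3.

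The lincRNA probes that were most clearly higher in CLP came from a few intervals. In chr6:40693617-40720167 (forward strand, band 6qB1), 1 probe measured -4.36 on WT LSK, -4.43 on SFRP5 LSK, 1.68 on WT CLP and 2.83 on SFRP5 CLP. It rose by 6.65 (SE 0.48, limma adjusted p 0.0333). All 5 probes of that interval were higher on both CLP arrays, 3 of them undetected on WT LSK, and 1 of these was at least 329-fold higher in WT CLP. The nested interval chr6:40699474-40719122 gave a probe at -4.40, -1.25, 3.11 and 4.04, which rose by 6.40 (SE 0.64, limma adjusted p 0.034). The array gives these intervals no gene, so they are known here by position alone.

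Other intervals with probes that rose in CLP were chr5:77084398-77086144 (reverse strand; -2.72, -0.78, 2.71 and 2.74 on WT LSK, SFRP5 LSK, WT CLP and SFRP5 CLP) and chr4:21683562-21694344 (forward strand; -3.06, -2.68, 0.74 and 0.57). Their limma estimates were 4.47 (SE 0.58, adjusted p 0.0476) and 3.53 (SE 0.41, adjusted p 0.0409). In the second, 4 of 5 probes were higher on both CLP arrays, and the reverse-strand probes of chr4:21683562-21694350 were higher too. In chr12:32781477-32808567 (reverse strand), 1 probe was above background on both CLP arrays and on neither LSK array, with bounds of at least 95.0-fold in WT and at least 39.1-fold in SFRP5.

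The widest agreement among probes was in chr17:24152225-24169870 (reverse strand, band 17qA3.3), where 9 of 9 probes were at least 2-fold higher in CLP in both genotypes. Its medians were 1.15 on WT LSK, 1.41 on SFRP5 LSK, 4.19 on WT CLP and 3.29 on SFRP5 CLP. The differences of the single probes were 2.74 to 3.76 in WT and 1.68 to 2.46 in SFRP5. In chr17:95255725-95272425 (band 17qE5) both strands were higher, with 4 of 4 forward and 5 of 5 reverse probes. The forward medians were -1.83, -0.71, 0.54 and 0.45 and the reverse medians -1.73, -1.44, 0.69 and 0.12 on WT LSK, SFRP5 LSK, WT CLP and SFRP5 CLP.

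The probes most clearly lower in CLP also clustered. In chr1:69531191-69570566 (band 1qC3) the leading reverse-strand probe measured 1.88 on WT LSK, 0.97 on SFRP5 LSK, -1.82 on WT CLP and -4.10 on SFRP5 CLP, and fell by 4.38 (SE 0.50, limma adjusted p 0.04). The leading forward-strand probe of the same interval measured 1.20, 0.40, -2.28 and -4.24 and fell by 4.06 (SE 0.47, adjusted p 0.0408). The leading probe of each strand was thus higher on both LSK arrays than on either CLP array, and both were lower in SFRP5 in each sort (-2.28 to -0.81). Another reverse-strand probe of the interval did not share the order, at 0.07, -5.49, -3.22 and -7.17. It was not above background on the SFRP5 arrays.

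Of the 10 probes with the largest repeated decrease, 5 lie in chr3:35782698-35789932 and the interval nested in it, chr3:35782698-35789748 (band 3qB). The nested interval was lower in CLP with all 3 probes of each strand that were above background on all arrays, with forward medians of 0.62, 0.52, -2.26 and -2.50 and reverse medians of -0.28, -0.54, -3.86 and -3.92 on WT LSK, SFRP5 LSK, WT CLP and SFRP5 CLP. The median genotype difference there was between -0.36 and -0.10 on either strand and in either sort. In chr16:43623581-43642715 (forward strand, band 16qB4) the brightest probe measured 4.59, 4.37, 1.37 and 1.20 and fell by 3.19 (SE 0.39, limma adjusted p 0.0445). Within it, 3 probes of chr16:43635730-43639104 were lower by -4.06 to -1.35 in WT and by -2.98 to -1.19 in SFRP5.

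Intervals in which every probe above background on all 4 arrays differed at least 2-fold the same way in both genotypes give a view that does not rest on 1 probe. Of 2148 stranded intervals with at least 2 such probes, 10 were higher in CLP (0.466%) and 40 lower (1.86%), from 36 and 114 probes. By the same rule 118 of 4094 gene symbols with at least 2 such probes were higher (2.88%) and 76 lower (1.86%). Both strands of the interval qualified for 1 of those higher and 4 of those lower. Among the lower ones were both strands of chr16:84702353-84710928 (forward medians 1.70, 1.67, -0.70 and -0.37), both strands of chr1:175705225-175717250 (reverse medians 2.72, 3.14, 0.91 and 1.74) with the nearby chr1:175653557-175671940, both strands of chr4:146965675-146979325, and chrX:47893703-47996700 (0.38, 0.82, -2.44 and -1.69). Under each of the 6 scalings all 50 kept their direction with every probe. The demand of 2-fold in every probe was met by 4 of the 10 and 13 of the 40 under all 6, and normexp alone gave the same counts of 4 and 13.

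For the genotype, 3 stranded intervals were higher and 3 lower by that rule, each with 2 such probes, out of the same 2148 (0.140% each), beside 0 and 1 of the 4094 gene symbols. The higher ones were chr7:6302922-6306477 (forward strand; medians -3.34 on WT LSK, -0.16 on SFRP5 LSK, -3.91 on WT CLP and -1.62 on SFRP5 CLP), chr14:52864224-52878449 (forward; -2.53, -1.18, -2.99 and -1.34) and chr9:56913341-56913901 (reverse; -1.69, -0.63, -1.52 and 0.32). The lower ones were chr4:109071198-109078776 (forward; -2.28, -4.26, -1.28 and -4.50), chr4:147105275-147171025 (reverse; -1.18, -2.85, -2.47 and -3.76) and chr7:134369091-134376366 (forward; -0.76, -3.34, -0.80 and -2.04). All 6 kept their direction under each scaling, and none kept 2-fold in every probe under normexp.

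Single probes above background on all 4 arrays, and at or above the 75th percentile on their brightest, were ranked by the smaller of their differences in LSK and CLP. The highest repeated genotype difference was in chr3:21964899-21974885 (forward strand, band 3qA3), at -2.99 on WT LSK, -0.20 on SFRP5 LSK, -3.28 on WT CLP and 0.68 on SFRP5 CLP. All 4 probes of that interval were higher on the SFRP5 array in both sorts. In chr14:78214602-78225827 (band 14qD3) a forward probe measured -1.38, 1.09, -4.13 and -1.35 and a reverse probe -1.19, 0.43, -3.07 and -1.27, and 3 of 5 probes of each strand were higher on the SFRP5 array in both sorts. The brightest forward probe of that interval was not among them, at 4.74, 3.94, 3.66 and 3.86. The lowest repeated difference was that of 1 probe of 10 in chr16:43623581-43642715 (forward strand), at 1.32, -0.53, -0.68 and -2.72. The brightest probe of that interval differed by only -0.21 in LSK and -0.17 in CLP. Within it, the 3 probes of chr16:43635730-43639104 differed by -0.43 to 0.24 in LSK and by -0.26 to 1.28 in CLP, so the decrease was not shared by all probes there. A probe of chr9:43738583-43757007 (reverse strand) was not detected on either WT array and measured 1.09 on SFRP5 LSK and 0.83 on SFRP5 CLP, at least 95.0-fold higher than WT in CLP, or 47.0-fold with the floor over lincRNA probes alone. None of these passed the limma test for the genotype.

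Probes of 1 interval and strand moved together as closely as probes of 1 gene, or more so. Across 2148 pairs of lincRNA probes that share interval and strand, the correlation of their differences was 0.60 for the sort in WT, 0.55 for the sort in SFRP5, 0.49 for the genotype in LSK and 0.39 for the genotype in CLP. Across 4094 pairs of gene probes of 1 symbol it was 0.59, 0.49, 0.20 and 0.22. Forward against reverse probes of 1 interval gave lower values over 837 intervals: 0.45, 0.37, 0.33 and 0.29. Pairs share their 2 arrays, and some intervals overlap, so these values are descriptions.

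Averages over the probes of each strand correlated more strongly, but in a smaller set of intervals than the 837 above. The part of averaging in this was therefore not set apart from the choice of intervals. In 296 intervals with at least 3 probes above background on all 4 arrays on each strand, the mean differences of the 2 strands correlated at 0.72 for the sort in WT, 0.64 for the sort in SFRP5, 0.60 for the genotype in LSK and 0.49 for the genotype in CLP.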

How the data were processed

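RNA from 4 sorted samples was amplified with a whole-transcriptome kit, labelled with Cy3 and hybridised to 4 one-colour arrays, 1 per group. The deposited processed signal is an intensity per spot with the scanner's flags, from Agilent Feature Extraction 10.10, per the submitters' processing notes and the file headers. The authors' deposited signal table holds the same intensity times 1 factor per array, found by setting it against the processed signal, and was used as an alternative.

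Spots of 1 probe were averaged, control spots and flagged outliers left out, and log2 signals centred on each array's 75th percentile. Differences between 2 arrays used probes well above background on both and a fold of 2. The additive fit (limma 3.58.1, R 4.3.3) took genotype and sort as terms over probes above background on at least 2 arrays, with Benjamini-Hochberg adjustment at 0.05, and was tested on simulated data. Python 3.11.15, NumPy 2.4.6, pandas 2.3.3, SciPy 1.17.1 and matplotlib 3.10.9 were used.

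Probes named were drawn from these sets: the 10 brightest, the 10 per direction for the sort and 5 for the genotype with the largest difference repeated in both comparisons, the 3 highest and lowest bounds of each comparison, intervals in which every probe reached 2-fold for the sort in both genotypes, and probes near XIST. Not every member of these sets is described: of the 5 lowest for the genotype only the first is, and many of the bounds are not. The intervals named for the genotype by that joint rule were chosen after their values were seen. The members and lists were chosen with earlier results of these data known. A comparison with neighbouring genes was not made.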

Additional observations from a re-analysis of the deposited data

Results flagged for a closer look

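The genotype difference pointed one way in LSK with every probe and the other way in CLP for 2 named RNAs. The median over NEAT1 probes was -1.72 in LSK and 0.30 in CLP, and that over NEAT2 probes was -0.33 in LSK and 0.72 in CLP. Of 1280 stranded intervals with at least 3 probes above background on all 4 arrays, 182 showed such opposite directions, 116 of them lower on the SFRP5 array in LSK and 66 higher. That is 14.2% of those intervals, beside 102 of 819 gene symbols with at least 3 such probes (12.5%), of which 13 were lower in LSK and 89 higher. In 3 of them every probe differed at least 2-fold in both sorts. These were chr8:108153471-108159672 on the reverse strand (-1.76 in LSK and 1.75 in CLP), an interval on the forward strand of band 18qE4 (-1.51 and 1.69) and chr13:24613384-24613726 on the reverse strand (-2.10 and 1.11). The 3 intervals were picked after their values were seen. The difference between the sorts was not tested, since each group holds 1 array.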

How the results depend on the processing

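With 1 array per group, the number of arrays limits every value, and dim probes lie close to background. The counts of lincRNA probes at least 2-fold different were 3025 for the sort in WT, 1783 for the sort in SFRP5, 1977 for the genotype in LSK and 1033 for the genotype in CLP. They became 1267, 761, 622 and 172 with normexp, which was run on the median signal, and 5820, 4320, 4725 and 3376 without the filter on dim probes. The 140 lincRNA probes that limma called for the sort became 358 with normexp, 318 over probes above background on all 4 arrays, 324 with an intensity trend, and 0 with quantile normalization, cyclic loess or no filter. The count for the genotype was 0, and 3 with normexp or the trend and 2 with a filter on the brighter array. The same direction of the sort difference was seen for 61.5% of probes, and for 66.32% with the percentile over gene probes, 69.41% in the authors' deposited table, 55.6% without the filter and 62.69% with the brighter-array filter. For the genotype 45.2% became 51.58% with normexp, 41.74% in the authors' deposited table and 49.21% without the filter. The share detected was 75.3%, and 94.18% with the scanner's more lenient flag or 90.77% counted over intervals. The cause of these shifts was not tested. With the floor of the bounds over lincRNA probes alone, chosen after the data were seen, the 1311 probes lower by a bound for the sort in WT became 792, and the 566 higher for the genotype in CLP became 306. No paired analysis was possible because each group holds 1 array, so that no replicate numbers pair the groups; the additive fit sets each factor beside the other as a term. The planned comparison with neighbouring genes and its alternatives were not run.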
